A study of Mus musculus with 36 samples.

Results

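Ago2, the Argonaute protein that carries miRNAs to their target RNAs, was bound at 20 peaks on 7 genes that act as feedback inhibitors of Wnt signalling in mouse colonic tumours. The genes are Wif1, Dkk2, Notum, Nkd1, Axin2, Znrf3 and Rnf43. The 20 peaks are all those that the authors' annotation assigned to any of these genes, out of 7585 annotated peaks on 3933 genes and 7730 merged peaks in all.

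Wnt ligands bind a Frizzled receptor and an LRP co-receptor, and the signal stops a cytoplasmic destruction complex from degrading beta-catenin, which then switches on target genes in the nucleus. Several target genes encode brakes on the same pathway, so that a strong signal raises its own inhibitors. In the colon this circuit holds stem cells in the crypt, and loss of Apc, a scaffold of the destruction complex, turns the pathway on without a ligand. The 7 brakes work at different steps. Wif1 and Dkk2 are secreted proteins that bind Wnt ligands and the LRP co-receptors, respectively, and Notum is a secreted enzyme that removes the lipid that Wnt ligands need. Nkd1 binds Dishevelled inside the cell and Axin2 is a scaffold of the destruction complex, while Znrf3 and Rnf43 are membrane ubiquitin ligases that clear Frizzled receptors from the cell surface.

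The 12 tumours came from C57BL/6 mice, 6 of each genotype, with 3 of each genotype in each of 2 batches named by the labels. Both genotypes carried Halo-Ago2/+, which encodes Ago2 joined to a Halo tag so that it can be captured on a resin, together with Villin-CreER/+, a tamoxifen-inducible Cre recombinase driven by the Villin promoter of gut epithelium, and Apc(fl/fl), the allele pair that Cre inactivates. The tumours called G12D here also carried K-Ras-G12D/+, an activated form of the Ras oncogene, and those called WT had the wild-type K-Ras allele. Mice were 8 to 12 weeks old when an enema of 4-hydroxytamoxifen at 5 mg/ml started the tumours, and tumour lawns were taken from moribund animals, so every sample is a whole tissue, and Apc was targeted in all 12. Tissue was crosslinked with UV light at 400 mJ/cm2, 3 times, and the RNA that came down with Halo-Ago2 was sequenced as miRNA and as mRNA fragments. The labels number the tumours but do not state that each number is 1 mouse, so the p-values below measure the spread between these samples. In bulk tissue, fewer cells that carry an RNA and less of that RNA per cell cannot be told apart, and a peak's signal also mixes the level of its RNA with the binding of Ago2, because input libraries were not analysed here.

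Depth differed widely among the mRNA libraries, from 30607 to 974013 reads in peaks. WT replicates 5 and 6, both in batch 2, were the shallowest with 30607 and 57037 reads, and 59.8% and 34.0% of all peaks had no read in them, against 1.14% to 5.85% in the other 10 libraries. WT replicate 5 also had 21.6% of its reads in intron peaks, against 5.50% to 10.4% in the others. Of the lists of marker genes, 20 of 23 colon epithelium genes had a peak, against 4 of 18 for fibroblasts and smooth muscle (Col1a1, Col1a2, Col3a1 and Sparc), 1 of 18 for leukocytes (H2-Eb1) and 1 of 14 for endothelium and nerve (Ret). The defining genes Pdgfra, Acta2, Ptprc and Pecam1 had none.

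Of the 20 peaks, 10 lay in introns, 7 in exons outside the 3' UTR and 3 in 3' UTRs, as the authors annotated them. Introns hold 12.1% of all annotated peaks, exons 32.2% and 3' UTRs 49.6%. Positions below are those of the deposited peaks (mouse mm10, the GRCm38 assembly), numbered within each gene along the chromosome. Wif1 had a single peak, in an exon at chr10:121090136-121090194, 10448 bases before the 3' end of the gene. The single Dkk2 peak lay in an intron at chr3:132114576-132114632. Notum had a 3' UTR peak at chr11:120654073-120654135 (peak 1) and an exon peak at chr11:120657488-120657535 (peak 2). Nkd1 had intron peaks at chr8:88523436-88523517 (peak 1) and chr8:88530930-88530986 (peak 2) and a 3' UTR peak at chr8:88592261-88592310 (peak 3).

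Axin2 and Rnf43 held 6 peaks each, the most of the 7 genes. Those of Axin2 began with exon peak 1 at chr11:108923866-108923912 and ended with 3' UTR peak 6 at chr11:108949835-108949892, 891 bases before the gene's end. Between them lay intron peaks 2, 3 and 5 and exon peak 4. Rnf43 had intron peaks 1 to 4, the first at chr11:87676291-87676354, and exon peaks 5 and 6 at chr11:87727362-87727416 and chr11:87731620-87731682. The Znrf3 peak lay in an exon at chr11:5281482-5281541. The authors called 1 peak list per genotype, and 11 of the 20 peaks are in the WT list, 17 in the G12D list and 8 in both. The Dkk2 peak, Notum peak 1 and Axin2 peak 5 are in the WT list alone. The Znrf3 peak is in the G12D list alone, as are 4 Axin2 and 4 Rnf43 peaks. The lists hold 2186 and 7569 peaks, so presence in the longer list alone shows no change.

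A miRNA finds its target mainly through its seed, bases 2 to 8, and the authors' annotation lists seed sites in 4 classes. From the longest match to the shortest these are the 8mer, the 2 kinds of 7mer and the 6mer. An 8mer or 7mer site was listed in 12 of the 20 member peaks (60.0%), against 76.0% of all annotated peaks. An 8mer was listed in 4 of 20 (20%) against 35.6%, and 5 of 20 (25.0%) had no listed site against 11.4%. Among exon and 3' UTR peaks, 1 of 10 members (10%) had no site, against 10.6% of all such peaks. Among intron peaks it was 4 of 10 members (40%) against 16.5%. The peaks without a site were those of Wif1, Axin2 peak 5 and Rnf43 peaks 1, 2 and 3, all in introns except that of Wif1. Mature miRNAs of most of the sites described next, and those whose level differed between the genotypes, are shown here with the seed in capitals (sequences from RefSeq, GRCm38.p6).
let-7i-5p: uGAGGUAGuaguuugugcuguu
miR-196b-5p: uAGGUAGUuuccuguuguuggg
miR-22-3p: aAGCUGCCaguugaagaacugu
miR-16-5p: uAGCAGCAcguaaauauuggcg
miR-103-3p: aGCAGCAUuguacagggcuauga
miR-29a-3p: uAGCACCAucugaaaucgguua
miR-181a-5p: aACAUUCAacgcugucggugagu
miR-31-5p: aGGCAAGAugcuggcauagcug
miR-34a-5p: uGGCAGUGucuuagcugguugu
miR-449a-5p: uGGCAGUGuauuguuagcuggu
miR-23a-3p: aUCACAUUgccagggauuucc
miR-193a-3p: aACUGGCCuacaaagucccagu
miR-674-5p: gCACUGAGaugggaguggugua

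The let-7 family, which is known to restrain growth genes in many tissues, had the most 8mer sites among the members. Its 8mers were listed in Axin2 peak 2 (intron), Axin2 peak 4 (exon) and the Znrf3 exon peak, 3 of 20 peaks against 4.98% of all annotated peaks. The same 3 peaks carried a 6mer of miR-196, whose seed overlaps that of let-7 when shifted along the sequence by a base, so these are not separate observations. The fourth 8mer was for miR-22, in Axin2 intron peak 3. Axin2 peak 6 and Rnf43 peak 5 carried a 7mer of the miR-103 family, and Axin2 peak 6 and Notum peak 2 carried a 7mer of the miR-15 and miR-16 family. The seeds of miR-16 and miR-103 share their core as printed above, and the sites in Axin2 peak 6 can overlap. Notum peak 1 carried 7mers of the miR-34 and miR-449 family, miR-185 and miR-194-2-3p, the Dkk2 peak a 7mer of miR-31, Nkd1 peak 1 and Rnf43 peak 4 each a 7mer of miR-181, Rnf43 peak 5 a 7mer of miR-29 and Rnf43 peak 6 a 7mer of miR-674.

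Values are given first as RPM, meaning reads in the peak per 1000000 reads in all peaks of that library, so that each member is read relative to the whole library. The genotypes were compared in limma on the log2 scale with batch as a covariate, over 7527 peaks with a mean of at least 5 normalised counts. Of the 20 member peaks 19 passed that filter, all but Axin2 peak 4. Because the median log2 fold change (G12D over WT) of all peaks was 0.60, a member at 0 is already below most peaks.

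The secreted inhibitors had the lowest median log2 fold change of the 3 roles, and Wif1 the lowest value of all member peaks. The Wif1 exon peak measured 761, 307, 192, 2480, 359 and 12238 RPM in WT replicates 1 to 6. In G12D replicates 1 to 6 it measured 126, 43.5, 39.9, 131, 96.5 and 109. All 6 G12D tumours lay below all 6 WT tumours, which was true of 4 of the 7527 peaks (0.0531%), and the 2 shallow WT libraries lay at 359 and 12238 with 11 and 698 reads behind them. Among the peaks of its own library, the Wif1 peak ranked at a median percentile of 97.1 in WT and 73.8 in G12D.

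The log2 fold change of the Wif1 peak was -3.37 (SE 0.69, limma adjusted p = 0.228, unadjusted p = 0.000121), and 0.0266% of the tested peaks had a value that low. At an adjusted p under 0.05, limma called 0 of 7527 peaks in either direction (0.0%), and unadjusted 752 were higher (9.99%) and 93 lower (1.24%). The call for Wif1 depended on the test. On the recovered reads it was lower in G12D by edgeR's quasi-likelihood test (log2 fold change -4.04, adjusted p = 0.0318, with 0.146% of peaks called lower and 0.0133% higher) and by DESeq2 (-4.17, adjusted p = 1.1e-05, with 1.05% called lower and 0.585% higher). Without WT replicates 5 and 6 it passed in limma as well, at -3.13 (SE 0.49, adjusted p = 0.0317, with 0.0664% of peaks called lower and 0.0133% higher). In the authors' deposited table its log2 fold change was -2.95 with an adjusted p of 0.00287, and 27 of 7613 peaks (0.355%) were lower there against 755 higher (9.92%).

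Dkk2, whose peak is intronic, measured 326, 166, 79.9, 584, 32.7 and 17.5 RPM in WT replicates 1 to 6. In G12D it measured 104, 25.7, 0, 11.1, 10.3 and 49.1. The groups overlapped, and the shallow WT replicates 5 and 6, with 1 read each, lay among the G12D tumours. The other 4 WT tumours lay at 79.9 or above, and 5 of the 6 G12D tumours lay below them. The log2 fold change was -2.27 (SE 0.84, limma adjusted p = 0.443), and -3.48 (SE 0.82, limma adjusted p = 0.229) without WT replicates 5 and 6. DESeq2 on the recovered reads called it lower at -2.64 (adjusted p = 0.0452). It did not pass in edgeR (-2.68, adjusted p = 0.187), and the authors' table gave it no adjusted p.

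Notum had its highest mean over the 12 libraries at exon peak 2. Without WT replicates 5 and 6 the WT mean was 66.4 RPM there against 84.7 at 3' UTR peak 1. The G12D means were 41.85 RPM at peak 2 and 20.59 at peak 1. Peak 2 measured 47.0, 42.9, 24.0, 152, 327 and 1964 RPM in WT replicates 1 to 6. In G12D it measured 21.0, 7.90, 47.9, 74.8, 26.7 and 72.9. The groups overlapped in batch 1, while in batch 2 all 3 G12D tumours lay below all 3 WT tumours. At 3' UTR peak 1 the lowest, median and highest WT values were 0, 85.0 and 281, against 11.1, 15.2 and 35.0 in G12D. There the only WT tumour that was not above every G12D tumour was the shallow replicate 5, which had no read. The log2 fold changes were -1.48 (SE 0.77, limma adjusted p = 0.447) for peak 1 and -1.85 (SE 0.66, limma adjusted p = 0.443) for peak 2. Without WT replicates 5 and 6 they were -1.96 (SE 0.40, limma adjusted p = 0.136) and -0.96 (SE 0.48, limma adjusted p = 0.716). DESeq2 on the recovered reads called both lower, at -2.42 (adjusted p = 0.0021) and -2.59 (adjusted p = 0.0267). Neither passed in edgeR (adjusted p = 0.0872 and 0.25) or in the authors' table (adjusted p = 0.0600 and 0.110). Summed over both peaks, the values were 21.7 to 110 RPM in G12D against 95.8 to 2244 in WT, and the ranges overlapped. The highest WT sum was that of the shallow replicate 6. Without WT replicates 5 and 6 the WT sum was 151 ± 71.3 RPM (mean and SD), against 62.4 ± 31.3 in G12D.

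**Figure D1:**
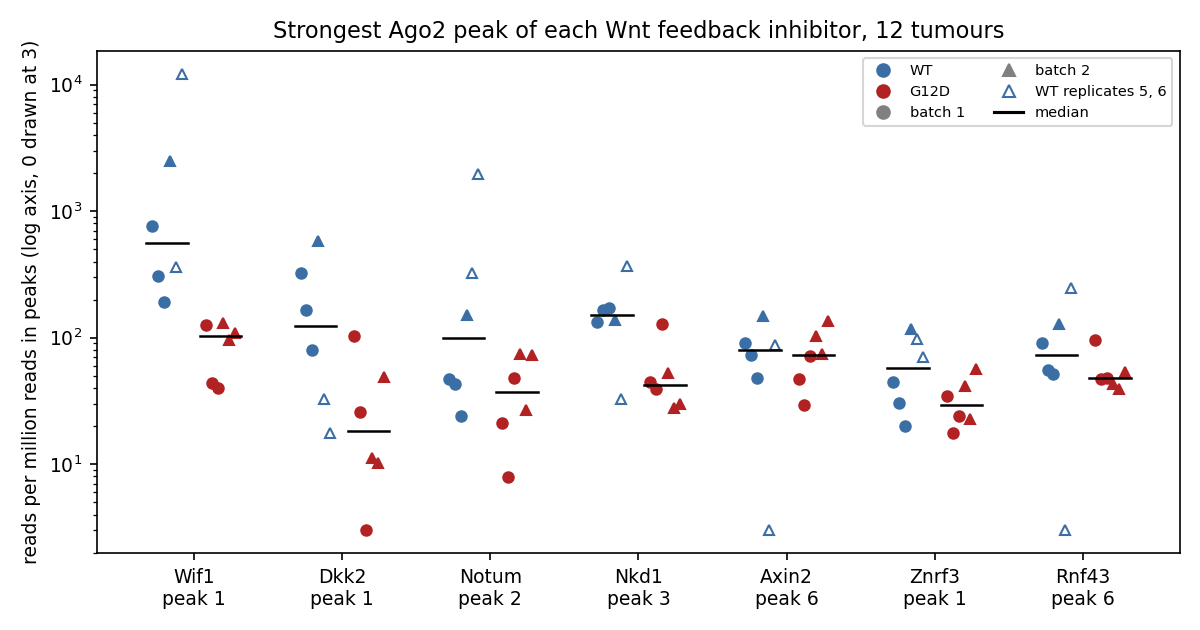
RPM (log axis, zeros drawn at 3) of the peak with the highest mean over the 12 libraries of each of the 7 genes in 6 WT (blue) and 6 G12D (red) tumours, with circles for batch 1, triangles for batch 2, open triangles for the shallow WT replicates 5 and 6, and a bar at each median. The G12D points of Wif1 (39.9 to 131) lie below all of its WT points (192 to 12238), while the 2 genotypes overlap for the other 6 genes.

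The intracellular inhibitors were split between Nkd1 and Axin2. Nkd1 3' UTR peak 3 measured 133, 166, 172, 138, 32.7 and 368 RPM in WT replicates 1 to 6. In G12D it measured 44.4, 39.5, 128, 52.5, 27.7 and 30.1. Apart from the shallow WT replicate 5, with 1 read, every WT tumour lay above every G12D tumour. The log2 fold change was -1.47 (SE 0.55, limma adjusted p = 0.443), and it was -1.48 (SE 0.38, limma adjusted p = 0.310) without WT replicates 5 and 6.

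The 2 intron peaks of Nkd1 had log2 fold changes of the same sign, -1.25 (SE 0.58) for peak 1 and -1.73 (SE 0.70) for peak 2, each with a limma adjusted p of 0.443. Their medians were 72.8 and 91.0 RPM in WT and 37.9 and 28.3 in G12D, and the groups overlapped at both. DESeq2 on the recovered reads called all 3 Nkd1 peaks lower, at -1.69 (adjusted p = 0.049), -2.81 (adjusted p = 0.00481) and -1.96 (adjusted p = 0.0041). None of the 3 passed in edgeR (adjusted p = 0.456 for peak 1 and 0.0976 for peak 2). In the authors' table none passed either (adjusted p = 0.395, 0.0640 and 0.132). Per-peak values of 1 gene come from the same libraries and are not replicates of each other.

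Axin2 3' UTR peak 6 measured 91.3, 73.6, 47.9, 149, 0 and 87.7 RPM in WT replicates 1 to 6. In G12D it measured 46.9, 29.6, 71.8, 103, 75.0 and 136. The ranges overlapped. The log2 fold change was 0.45 (SE 0.73, limma adjusted p = 0.749), and it was -0.53 (SE 0.34, limma adjusted p = 0.764) without WT replicates 5 and 6. The sign turned without WT replicate 5 alone (-0.36) but not without replicate 6 alone (0.63), and with all 12 libraries it was also below 0 in edgeR (-0.24) and DESeq2 (-0.39).

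The other Axin2 peaks differed among themselves. Exon peak 1 had a median of 66.4 in WT and 45.5 in G12D (log2 fold change -0.79, SE 0.49). Intron peaks 2 and 3 stood at 0.31 (SE 0.74) and 0.90 (SE 0.66), and at -0.93 and -0.21 without WT replicates 5 and 6. Exon peak 4 was low throughout, with medians of 11.5 in WT and 9.87 in G12D, and was not tested. Intron peak 5 was high in the shallow libraries alone. It measured 523 and 281 RPM in WT replicates 5 and 6, from 16 reads in each, and 0 to 16.6 in the other 4 WT tumours against 0 to 23.9 in G12D. Its log2 fold change was -1.71 (SE 0.82, limma adjusted p = 0.445) and -0.31 (SE 0.85, limma adjusted p = 0.962) without these 2 libraries. It passed the filter through WT, with a mean of 19.8 normalised counts there, 1.97 in WT without these 2 libraries and 3.95 in G12D, so its DESeq2 call with all 12 libraries (-3.76, adjusted p = 0.0105) is no separate evidence of a difference.

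The receptor ubiquitin ligases had no peak past an adjusted p of 0.05 in limma, edgeR or DESeq2 relative to all peaks, although DESeq2 gave no adjusted p for Rnf43 peaks 2 and 5. The Znrf3 exon peak measured 44.2, 30.7, 19.97, 117, 98.0 and 70.1 RPM in WT replicates 1 to 6. In G12D it measured 34.5, 17.8, 23.9, 41.4, 22.6 and 57.0. The genotypes overlapped in batch 1, and in batch 2 all 3 G12D tumours lay below all 3 WT tumours. The shallow WT replicates 5 and 6 had only 3 and 4 reads there. The log2 fold change was -0.73 (SE 0.49, limma adjusted p = 0.493).

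Rnf43 exon peak 6 measured 91.3, 55.2, 51.9, 127, 0 and 245 RPM in WT replicates 1 to 6. In G12D it measured 96.2, 47.4, 47.9, 43.0, 39.0 and 53.9. Apart from replicate 1, the G12D tumours lay between 39.0 and 53.9, with 5 WT tumours at 51.9 to 245 and the shallow replicate 5, where 1 read is worth 32.7 RPM, at 0. The log2 fold change was -0.09 (SE 0.74, limma adjusted p = 0.956), -0.88 without WT replicate 5, 0.43 without WT replicate 6 and -0.53 without both. Exon peak 5 had the highest fold change among the members, 1.31 (SE 0.77, limma adjusted p = 0.476), with medians of 39.4 in WT and 63.5 in G12D. The shallow WT replicates 5 and 6 had no read there, and without them the value was -0.11 (SE 0.44). Intron peaks 1 to 4 stood at 0.36, 0.71, -0.43 and -0.78, with SEs of 0.64 to 0.92. Peak 2 passed the filter through G12D, with a mean of 12.9 normalised counts there. Its WT mean was 4.43, and 6.04 without WT replicates 5 and 6. Intron peak 4 measured 457 and 842 RPM in WT replicates 5 and 6, 0 to 19.4 in the other WT tumours and 4.93 to 55.8 in G12D, and its value without the shallow libraries was 0.94 (SE 0.71).

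The members were chosen with earlier results of these data known, and their 19 tested peaks come from only 7 genes. The shares below therefore describe the list and do not test it. Taken as a list, 13 of the 19 tested member peaks had a log2 fold change below 0, against 19.0% of all tested peaks, and 16 lay below the median of all peaks. Axin2 peak 5, which passed the filter through WT, is in both counts. It is also in the later counts of member peaks below 0 and in the medians that cover Axin2. The median of the members was -0.78 against 0.60 for all 7527 peaks. At an unadjusted p under 0.05, 6 member peaks were lower (1 each of Wif1, Dkk2 and Notum and all 3 of Nkd1) and 0 were higher, against 1.24% lower and 9.99% higher of all peaks. DESeq2 on the recovered reads called 8 member peaks lower and 0 higher, of 16 to which it gave an adjusted p, against 1.05% and 0.585% of all peaks, and the 8 include Axin2 peak 5 with the limit given above. The median of all peaks was 0.07 in that fit, 0.15 in edgeR and 0.60 in limma, so values from the 3 tools have different baselines. In edgeR relative to all peaks, and in the authors' table, Wif1 was the only member peak past an adjusted p of 0.05. In limma the median was -2.06 for the 4 peaks of the secreted inhibitors, -1.02 for the 8 tested peaks of Nkd1 and Axin2 and -0.09 for the 7 peaks of Znrf3 and Rnf43. The 10 intron peaks of the members had a median of -0.60, against 0.81 for all intron peaks, and the 9 tested exon and 3' UTR peaks had a median of -0.79 against 0.57 for all such peaks.

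Without WT replicates 5 and 6 the median of all peaks moved to -0.02 and that of the members to -0.70. Then 16 of 19 member peaks had a value below 0, against 51.3% of all tested peaks. The 3 that did not were Rnf43 peaks 1, 2 and 4. At an unadjusted p under 0.05, 6 member peaks were lower (Wif1, Dkk2, Notum peak 1 and all 3 of Nkd1), against 4.09% of all peaks, and 0 member peaks were higher against 3.08%. On the authors' normalised scale, where the median of all peaks was 1.33, the median of the members was 0.07. There limma called 0 of 7527 peaks in either direction (0.0%), and at an unadjusted p under 0.05 it had 2700 higher (35.9%) and 13 lower (0.173%). Of the members, only the Wif1 peak was lower unadjusted (-2.49, SE 0.74, adjusted p = 0.108) and only Rnf43 peak 5 higher (1.94, SE 0.85, adjusted p = 0.123). On that scale Wif1 passed in limma with a pseudocount of 5 (-2.36, adjusted p = 0.0375) and without WT replicate 4 (-2.19, adjusted p = 0.026), and in DESeq2 (-2.95, adjusted p = 0.00281, with 0.359% of peaks called lower and 10.1% higher). It did not pass in edgeR (-2.94, adjusted p = 0.0588, with 0.0797% lower and 0.0531% higher) or in limma without WT replicates 5 and 6 (-2.72, adjusted p = 0.0757, with 0.0399% higher and 0.0% lower). Without WT replicate 4, limma called 3404 of the 7527 peaks, 3391 of them higher and 13 lower. Those called higher included Rnf43 peak 5 (2.44, adjusted p = 0.0256) and Axin2 peak 3 (2.07, adjusted p = 0.0298), so such a call was common among all peaks. Both peaks had 0 reads in WT replicates 5 and 6. Without those 2 libraries they stood at -0.11 and -0.21 relative to all peaks.

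**Figure D2:**
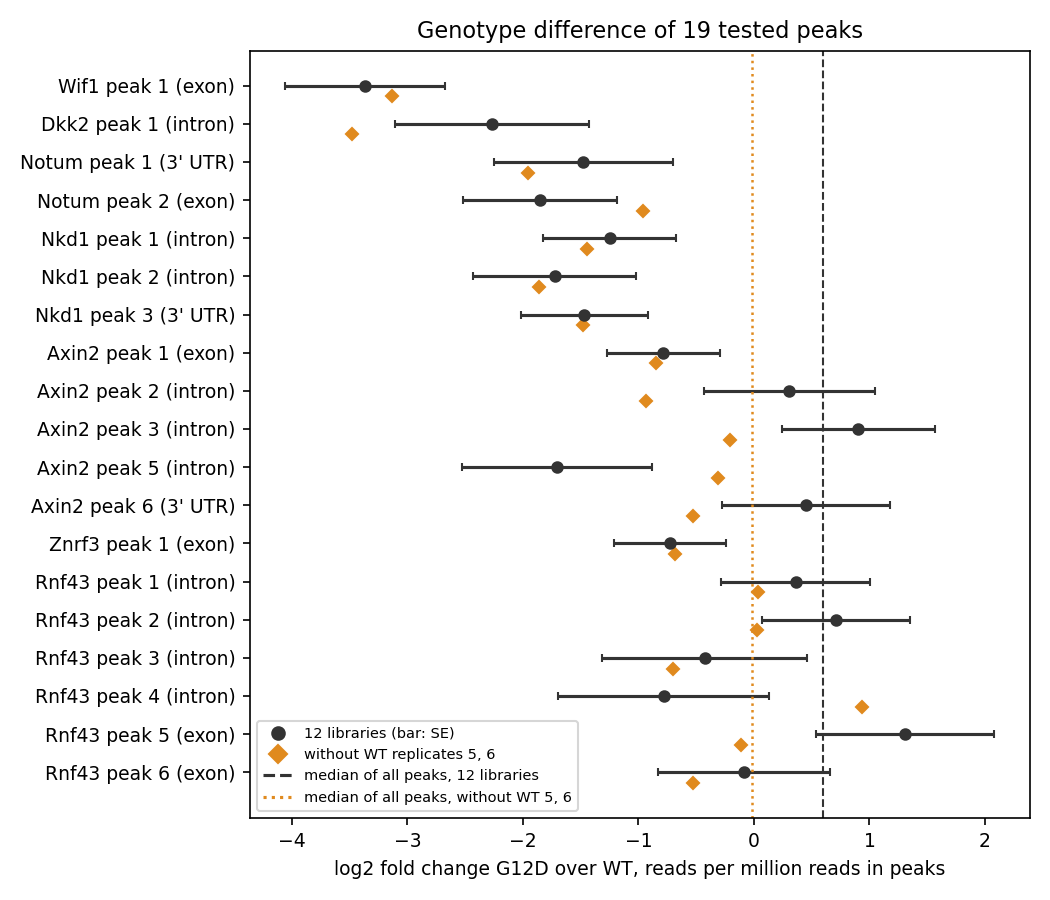
Log2 fold change (G12D over WT, RPM) of each of the 19 tested member peaks with its SE over 12 libraries (black) and without WT replicates 5 and 6 (orange), beside the median of all 7527 peaks for each (0.60 dashed, -0.02 dotted). The peaks of Wif1, Dkk2, Notum and Nkd1 lie left of 0 in both, while Axin2 peaks 2, 3 and 6 and Rnf43 peaks 4 and 5 move across 0.

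**Figure D3:**
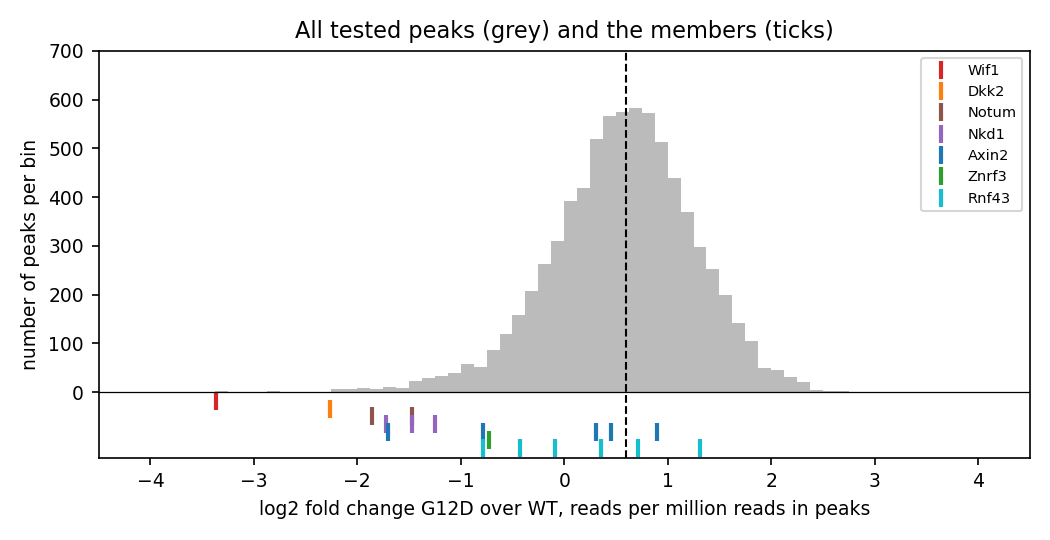
Histogram of the log2 fold change (G12D over WT, RPM) of all 7527 tested peaks, with the 19 tested member peaks as coloured ticks under the axis and the median of all peaks dashed at 0.60. The Wif1 tick stands at -3.37 in the far left tail and 16 of the 19 ticks lie left of the median.

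The genotype difference was also read within each batch, which holds 3 tumours of each genotype. The Wif1 peak stood at -2.45 (SE 0.61) in batch 1 and -4.27 (SE 1.03) in batch 2, with all 3 G12D tumours below all 3 WT tumours in each, as for 0.252% of all tested peaks. In batch 1, where no library was as shallow as WT replicates 5 and 6, 17 of 19 member peaks lay below 0 against 48.9% of all peaks. The 2 above 0 were Axin2 peak 3 (0.10) and Rnf43 peak 4 (0.82). Peaks of the colon epithelium genes were also mostly below 0 in batch 1, at 72 of 92. Their median there was -0.39, against -0.48 for the members and 0.01 for all peaks. Dkk2 stood at -2.68 (SE 0.98), Notum peaks 1 and 2 at -1.72 (SE 0.45) and -0.66 (SE 0.60), and Nkd1 peaks 1 to 3 at -1.42, -1.74 and -1.27. At Notum peak 1 and Nkd1 peak 3, too, all 3 G12D tumours of batch 1 lay below all 3 WT tumours, as for 4.96% of all peaks. At no member peak did all 3 G12D tumours of batch 1 lie above all 3 WT tumours, as for 5.14% of all peaks.

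In batch 2, 12 of 19 member peaks lay below 0 against 15.8% of all peaks, whose median there was 1.25. The 4 peaks of Wif1, Notum peak 2, Axin2 peak 1 and Znrf3 had all 3 G12D tumours of batch 2 below all 3 WT tumours, against 1.93% of all peaks. In the shallow WT replicates 5 and 6, Axin2 peak 1 rested on 2 and 3 reads and the Znrf3 peak on 3 and 4. At Rnf43 peak 2 all 3 lay above, as for 17.9% of all peaks. That peak passed the filter through G12D and had 0 and 1 read in WT replicates 5 and 6. A test of the difference between batches (limma interaction) called 0 of 7527 peaks, with 605 higher and 28 lower unadjusted (8.04% and 0.372%). Among the members Rnf43 peak 5 was past an unadjusted p of 0.05 (3.19, SE 1.37, adjusted p = 0.533), and without WT replicates 5 and 6 the value was 0.55 (SE 0.96).

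**Figure D4:**
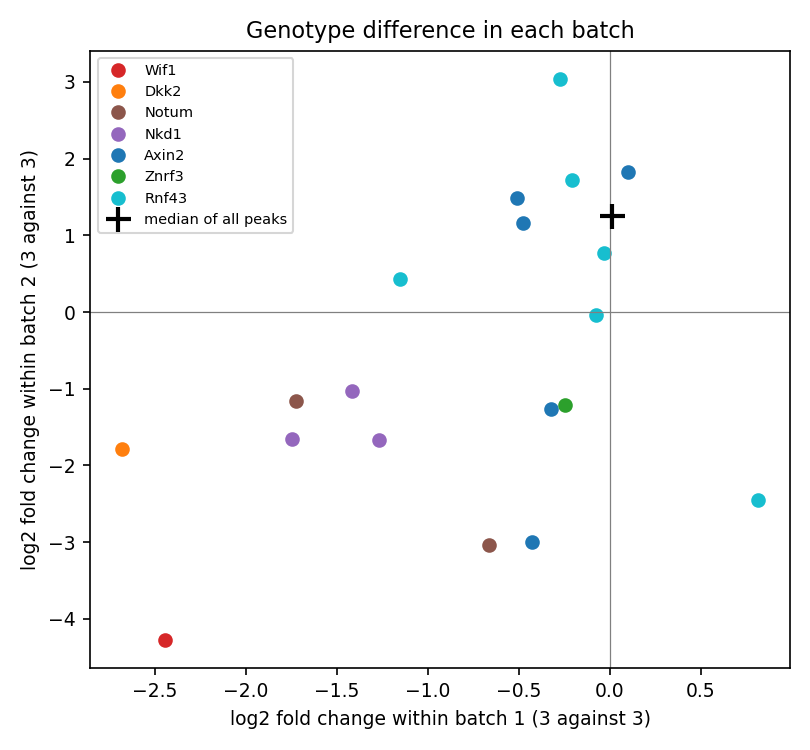
Log2 fold change (G12D over WT, RPM) of each tested member peak within batch 1 (horizontal) and within batch 2 (vertical), coloured by gene, with the median of all peaks as a cross at 0.01 and 1.25. The peaks of Wif1, Dkk2, Notum and Nkd1 are below 0 in both batches, while most Rnf43 and Axin2 peaks are near 0 in batch 1 and spread to both sides in batch 2.

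Levels were compared between genes as RPM per base of peak, summed over the peaks of a gene. In WT tumours the medians ran from 9.49 for Wif1 through Dkk2 (2.15), Nkd1 (1.81), Notum (1.78), Axin2 (1.40) and Znrf3 (0.953) to Rnf43 (0.809). Wif1 was above Dkk2 in 6 of 6 WT tumours. The order of the other neighbours was not settled. Notum was above Axin2 and Axin2 above Znrf3 in 5 of 6, and Dkk2 above Nkd1 in 4 of 6. Nkd1 was above Notum in 3 of 6 and Znrf3 above Rnf43 in 3 of 6. In G12D tumours Wif1 was still first with 1.74, followed by Rnf43 (0.706), Axin2 (0.691), Nkd1 (0.644), Notum (0.532), Znrf3 (0.487) and Dkk2 (0.323). No neighbours kept 1 order in all 6 G12D tumours. Wif1 was above Rnf43 and Nkd1 above Notum in 5 of 6. Rnf43 was above Axin2 in 3 of 6, Axin2 above Nkd1 in 4 of 6, Notum above Znrf3 in 2 of 6 and Znrf3 above Dkk2 in 4 of 6. The summed Axin2 signal came to 428 ± 148 RPM for WT and 243 ± 49.8 for G12D (SD over 6 tumours), with overlapping ranges. Axin2 peak 5 alone gave 523 of 588 RPM in WT replicate 5 and 281 of 473 in WT replicate 6. Without these 2 shallow libraries the WT sum was 376 ± 154 RPM.

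The miRNAs whose sites the peaks carry were measured in separate libraries of the same tumours, on the authors' normalised scale. Among 284 miRNAs tested in limma, the adjusted p was under 0.05 for 5 that were higher in G12D (1.76%) and 6 that were lower (2.11%). Of the 47 tested miRNAs in the 21 seed families of the members, 2 rose and 1 fell. Summed normalised counts of the let-7 family were 16382 ± 1843 for WT and 16466 ± 1763 for G12D (SD over 6 tumours), and none of its 9 members passed. let-7i-5p, its most abundant, stood at 5630 ± 504 and 5502 ± 554 (log2 fold change -0.03, SE 0.07). The miR-15 and miR-16 family summed to 5360 ± 321 and 5177 ± 183, and miR-22-3p stood at 3131 ± 88.6 and 3366 ± 455.

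The single family member that fell was miR-449a-5p, which has the seed of miR-34a and so shares the listed 7mer of Notum peak 1. It went from 240 ± 122 to 82.1 ± 20.8 (SD, n = 6 each; log2 fold change -1.43, SE 0.28, limma adjusted p = 0.0158). The far more abundant miR-34a-5p stood at 6561 ± 792 and 6154 ± 1075 (log2 fold change -0.10, SE 0.10). Of those that rose, miR-23a-3p (1895 ± 134 to 2755 ± 649, log2 fold change 0.51, SE 0.11, limma adjusted p = 0.0189) has a 6mer in Axin2 peak 1. miR-193a-3p (38.3 ± 9.46 to 104 ± 51.4, log2 fold change 1.27, SE 0.32, limma adjusted p = 0.0444) has a 6mer in Rnf43 peak 5. Both of these calls were lost with small changes. The adjusted p of miR-193a-3p was over 0.05 when any 1 library other than WT replicate 1 or G12D replicate 2 was left out (up to 0.106) and 0.0542 with no filter. That of miR-23a-3p was 0.0545 without WT replicate 2 and 0.0569 without G12D replicate 6, while that of miR-449a-5p stayed at or under 0.046 in the same fits. For the sites in Dkk2, Rnf43 peak 6 and Nkd1 peak 1, miR-31-5p stood at -0.61 (SE 0.42), miR-674-5p at 0.49 (SE 0.17) and miR-181a-5p at 0.37 (SE 0.20), and none passed. The Wif1 peak, with the lowest log2 fold change of the members, has no listed site.

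The other genes of the pathway, taken by role, were set beside the members. Of 40 Wnt ligands, their partners and receptors 8 genes had a peak, and of their 15 tested peaks 2 had a log2 fold change below 0 (median 0.51). Among the 34 genes of signal transduction 12 had a peak, and 9 of 36 tested peaks were below 0 (median 0.63). Of 25 other Wnt inhibitors, such as the Dkk and Sfrp families, 4 genes had a peak (Shisa2, Cxxc5, Tpbg and Igfbp4), and 2 of 4 peaks were below 0 (median -0.05). Of 26 other Wnt target genes 19 had a peak, and 22 of 82 tested peaks were below 0 (median 0.54), with 6 lower and 10 higher at an unadjusted p under 0.05. For all peaks the shares were 19.0% below 0, 1.24% lower and 9.99% higher. Without WT replicates 5 and 6 the other target genes had 12 lower and 4 higher of 82, against 4.09% and 3.08% of all peaks. None of these lists had a peak past an adjusted p of 0.05 in limma, with or without WT replicates 5 and 6.

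The peaks with the highest mean and the smallest p of each list lay on both sides of 0. The strongest target peak, in the 3' UTR of the transcription factor gene Myc, had 4594 ± 2027 RPM for WT and 8814 ± 4377 for G12D (SD over 6 tumours; log2 fold change 0.92, SE 0.35, limma adjusted p = 0.443). A 5' UTR peak of Prox1, a transcription factor gene, had 122 ± 233 and 2.40 ± 2.98 (log2 fold change -2.64, SE 0.73, limma adjusted p = 0.443). An exon peak of Ctnnb1, which encodes beta-catenin, had 798 ± 363 and 905 ± 379 (log2 fold change 0.39, SE 0.48). An exon peak of Lgr4, a receptor of the R-spondins that restrain Znrf3 and Rnf43, had 561 ± 619 and 445 ± 423 (log2 fold change 0.26, SE 0.59). The smallest p among ligands and receptors was that of a 3' UTR peak of the Frizzled gene Fzd1, at 10.2 ± 12.0 and 39.9 ± 15.4 (log2 fold change 2.00, SE 0.66). Among transduction genes it was that of an intron peak of the co-repressor gene Tle1, at 25.9 ± 38.7 and 56.8 ± 28.4 (log2 fold change 1.58, SE 0.65), each with a limma adjusted p of 0.443. A 3' UTR peak of Igfbp4, a secreted Wnt inhibitor, had 80.0 ± 61.2 and 92.3 ± 28.2 (log2 fold change 0.76, SE 0.71).

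Over the 92 tested peaks of the colon epithelium genes the median log2 fold change was 0.42, with 26 below 0, and their summed level ranged from 8103 to 63889 RPM in WT and from 19119 to 51015 in G12D. At an unadjusted p under 0.05, 2 of the 92 were higher and 0 were lower, against 9.99% and 1.24% of all peaks. Leaving out WT replicates 5 and 6 gave 2 higher and 15 lower, against 3.08% and 4.09% of all peaks. In that fit their median was -0.31, with 69 of the 92 below 0 against 51.3% of all peaks. Their strongest peak, in an exon of the mucin gene Muc2, stood at -0.68 (SE 0.58), and the smallest p was that of a 3' UTR peak of the transcription factor gene Cdx2 (2.37, SE 0.64, limma adjusted p = 0.443). The fibroblast and smooth muscle genes had a median of 0.69 over 14 peaks, 1 of them below 0, with sums of 131 to 2054 in WT and 676 to 2082 in G12D, and an exon peak of Col1a1 stood at 1.21 (SE 0.55, limma adjusted p = 0.443). The 3 leukocyte peaks, all of H2-Eb1, had a median of 0.09 and summed to 65.3 to 386 in WT and 131 to 258 in G12D. The 2 peaks of Ret had a median of 1.41. The part of cell composition in the members' values was not tested.

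Over the 12 libraries, the peak with the pattern most like that of the Wif1 peak, among 3495 peaks of other genes, was an exon peak of Prox1 (Pearson r = 0.97 of log2 RPM), followed by 3' UTR peaks of Tnfrsf19 (0.95) and Mt3 (0.93). Within the 6 WT libraries these were 0.97, 0.96 and 0.98, and within the 6 G12D libraries 0.89, 0.91 and 0.61. For the Dkk2 peak they were 3' UTR peaks of the cell cycle inhibitor gene Cdkn1a (0.90), Cldn2 (0.83) and Lyz1 (0.83). The peaks most like Axin2 peak 6 lay in Cblb (0.98), Tbc1d9 (0.97) and Pdzd8 (0.96), and those most like Nkd1 peak 3 in Anxa4 (0.90), Klf15 (0.89) and Atp1b1 (0.82). Notum peak 2 was most like peaks of AC130827.2 (0.94), Sema4c (0.92) and Spock2 (0.92), the Znrf3 peak like peaks of Cltc (0.84), Tnfrsf19 (0.81) and Arhgef26 (0.78), and Rnf43 peak 6 like peaks of Tor2a (0.96), Socs4 (0.94) and Zfp36l1 (0.94). Among the members' own strongest peaks, the correlation was 0.82 for Axin2 with Rnf43, 0.81 for Wif1 with Notum, 0.43 for Wif1 with Dkk2 and -0.05 for Dkk2 with Notum. Within the 6 G12D libraries the correlation of Rnf43 peak 6 with Socs4 was -0.09, and that of Znrf3 with Cltc 0.43, of Dkk2 with Cldn2 0.52 and Lyz1 0.54, and of Nkd1 peak 3 with Anxa4 0.60, against 0.98, 0.91, 0.90, 0.87 and 0.95 within WT. All of these are descriptions over points that share a library, its depth and its batch, and they carry no test.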

How the data were processed

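RNA captured with Halo-tagged Ago2 after UV crosslinking (a CLIP-type assay) was analysed for 12 mRNA and 12 miRNA libraries (6 WT and 6 G12D each, grouped by the labels). The 12 input libraries were not analysed here. The submitters' processing notes name STAR 2.5.2b, DESeq2, mm10 and GRCm38 without their roles, and no source used here names the peak caller. The deposited signal tables hold normalised counts, that is, read counts scaled by the authors with 1 factor for each library. Their peak columns give a model and a number without the library type, and are read here as mRNA libraries. Deposited log2 fold changes and adjusted p-values from the authors' table are named where used. The deposited peak lists, 1 per genotype, carry a score, with no unit given per the file headers, that served only to rank peaks. Gene, region and seed sites are those of the authors' annotation, which lacks 145 merged peaks.

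All values (100%) were whole multiples of 1 read within 0.001 reads, so reads were recovered. Totals were 289462 to 471587 reads for the miRNA libraries, and 1 peak read was worth 0.482 to 4.53 normalised counts. These totals cover listed features, not whole libraries, and a read may not be a molecule of its own. The main tests were limma-trend (limma 3.58.1, R 4.3.3) with batch as a covariate, on log2(normalised count + 1) and on log2 RPM (reads per 1000000 reads in peaks) (edgeR 4.0.16, prior count 2), over peaks averaging at least 5 and miRNAs averaging at least 10 normalised counts. P-values were adjusted by Benjamini-Hochberg over all features, with a threshold of 0.05. Both scales shrink the fold changes of low peaks. edgeR's quasi-likelihood test and DESeq2 1.42.0 on the recovered reads were alternatives, with other filters, scalings and left-out libraries. The fitting script was tested on simulated data. Percentiles give tied peaks their middle rank. The members and gene lists were chosen with earlier results of these data known. The text names all member peaks, full values for the strongest of each gene, the peaks of highest mean and smallest p of other lists, and the 3 most alike peaks of other genes with a mean of at least 20.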

Additional observations from a re-analysis of the deposited data

Results flagged for a closer look

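Of 40 groups examined (20 member peaks in 2 genotypes of 6 tumours), 5 held a tumour whose normalised count, on the log2 scale, was far from the rest of its group, and chance alone gives about 1 in 20 groups. Of these, 4 are in WT replicate 5, the library with 30607 reads in peaks. It had 0 normalised counts at Notum peak 1 against 11.7 to 39.0 in the other WT tumours, 4.53 (1 read) at Nkd1 peak 3 against 23.5 to 52.3, 0 at Axin2 peak 6 against 12.1 to 56.8, and 0 at Rnf43 peak 6 against 14.5 to 48.4. For a library in which 1 read is worth 4.53 normalised counts, the limit that a count of 0 allows (3 reads) is 13.6 normalised counts, so the values of 0 at Notum peak 1 and Axin2 peak 6 are not resolved from the next lowest tumour. The fifth is Axin2 peak 4 in G12D replicate 4, at 1.71 normalised counts against 3.46 to 4.97 in the other G12D tumours, a difference of few reads.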

How the results depend on the processing

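Counts of peaks past the threshold depended on the test, the scale and the shallow libraries. On the authors' scale, limma called 0 peaks, 513 (506 higher, 7 lower) with a pseudocount of 5, 3 (all higher) without WT replicates 5 and 6, and 234 (all higher) in batch 2 alone, while DESeq2 called 787 (760 higher, 27 lower) and edgeR 10 (4 higher, 6 lower). Leaving out 1 library at a time gave 0 to 3404, the highest without WT replicate 4. Relative to all peaks, limma called 0 and 6 (1 higher, 5 lower) without WT replicates 5 and 6, edgeR 12 (1 higher, 11 lower) and DESeq2 123 (44 higher, 79 lower). The cause was not tested. For miRNAs, 11 calls (5 higher, 6 lower) became 27 with DESeq2 and 5 to 16 when 1 library was left out, with 1 higher and 4 lower without G12D replicate 6. Replicate numbers did not pair the samples (correlations of same-numbered deviations -0.08 to 0.64, and 2 of 12 libraries correlated best with their own number). With the replicate block there were 0 calls on both peak scales, 6 miRNA calls (1 higher, 5 lower), and adjusted p-values of 0.0835 for Wif1 relative to all peaks, 0.0516 for miR-23a-3p and 0.0589 for miR-193a-3p.

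The log2 fold changes of Wif1, Dkk2, all Notum and Nkd1 peaks, Axin2 peaks 1 and 5 and the Znrf3 peak stayed below 0 relative to all peaks under every alternative run. Of these, Axin2 peak 5 had passed the filter through WT. Others crossed 0. On the authors' scale, Axin2 peak 6 went to -0.12 without WT replicates 5 and 6 and -0.10 in batch 1, and Rnf43 peak 6 to -0.13 without those replicates. The Znrf3 peak went to -0.067 with DESeq2, -0.044 with edgeR and -0.30 without those replicates. Relative to all peaks, Axin2 peak 2 went to -0.65 with edgeR, -0.69 with DESeq2, -0.93 without WT replicates 5 and 6 and -0.48 in batch 1. In the same order Axin2 peak 6 went to -0.24, -0.39, -0.53 and -0.51, and Axin2 peak 3 to -0.032, -0.10 and -0.21 under the first 3. Rnf43 peak 4 went to 0.94 without those replicates and 0.82 in batch 1, Rnf43 peak 5 to -0.11 and -0.27, Rnf43 peaks 1 and 2 to -0.030 and -0.21 in batch 1, and Rnf43 peak 3 to 0.43 in batch 2. With 1 library left out at a time, the ranges that crossed 0 were -0.089 to 0.38 (Znrf3) and -0.17 to 1.08 (Rnf43 peak 6) on the authors' scale. Relative to all peaks they were -0.36 to 0.84 (Axin2 peak 2), -0.36 to 0.75 (Axin2 peak 6), -0.10 to 0.80 (Rnf43 peak 1), -1.24 to 0.22 (Rnf43 peak 3) and -0.88 to 0.43 (Rnf43 peak 6). For miRNAs they were -0.053 to 0.14 (miR-1198-5p), -0.091 to 0.080 (miR-151-3p), -0.055 to 0.038 (miR-24-3p) and -0.077 to 0.023 (miR-425-5p).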
